A study of Mus musculus with 4 samples.

Results

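The 4 genes described here are Prl8a9, Prl2c2, Prl2c3 and Prl2c5, members of the prolactin family that are best known from the placenta, among the 32285 genes of a single-cell RNA sequencing study of mouse spermatogonial cultures. They were picked by symbol, and Prl8a9 was picked because its level in the feeder cells of the EV library stood above that of the vehicle libraries, so the difference between EV and vehicle is a description of that choice and carries no test. A pool of 3 male mice of postnatal day 6 gave the cultures. Testis cells that carry Thy1, among which early spermatogonia are enriched, were grown on STO cells, a mouse embryonic fibroblast line that serves as a feeder layer. Treatment lasted 3 days and was PBS in the vehicle group and, in the EV group, 1 μg/mL of extracellular vesicles (EVs) isolated from testes at postnatal day 7. Of the 4 libraries, counts of vehicle 1, vehicle 2 and EV 1 were used. The expression of EV 2 was not analysed here. Libraries are numbered as biological replicates in the labels, and the study describes them as independent cultures.

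The prolactin family of the mouse grew by gene duplication into a large group on chromosome 13, and most of its members are secreted by trophoblast cells of the placenta or by the decidua. The Prl2c genes encode the proliferins, secreted glycoproteins that were first found in mouse fibroblast lines stimulated with serum and are made in large amounts by trophoblast giant cells. Proliferins bind the mannose 6-phosphate/insulin-like growth factor 2 receptor (Igf2r) and act on endothelial cells. Prl8a9 encodes a prolactin-like protein of the placenta.

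Each cell was given a class by its own marker UMIs (unique molecular identifiers, 1 per captured RNA molecule). A cell was of the feeder class when Col1a1, Col1a2, Sparc and Dcn together had at least 2 UMIs and more than Dazl, Tex15, Stk31 and Epcam, of the germ class in the reverse case, and otherwise unassigned. The feeder class held 2357 of 8263 kept cells in vehicle 1 (28.5%), 2473 of 8637 in vehicle 2 (28.6%) and 2508 of 4779 in EV 1 (52.5%), with a median depth of 3635, 3896 and 2447.5 UMIs. The EV library stood apart in other ways, since the germ class held 4411, 4783 and 227 cells in that order, unassigned cells made up 18.1%, 16.0% and 42.8%, and the metallothionein gene Mt1 was at 2642, 2534 and 9027 CPM (UMIs per 1000000 UMIs of the class) in the feeder class. The part of these differences in the results below was not tested except where a value is given. Of 12 fibroblast genes that were not used to cut the classes, 12 had UMIs in the feeder class, with summed levels of 2115, 2193 and 2064 CPM, and 9 reached 200 UMIs. Among them were Fn1 (fibronectin) at 1169, 1223 and 1199 CPM, Col3a1 at 179, 190 and 122 CPM, Pdgfra at 168, 171 and 114 CPM and Pdgfrb, a gene called lower in EV 1 by the rule given for all genes, at 14.6, 13.1 and 5.31 CPM, while Col5a2 was at 66.3, 68.7 and 89.8 CPM and Fbln2 at 322, 341 and 390 CPM. A set of 6 other germ cell markers summed to 16.3, 13.4 and 3.39 CPM there. Lists for Sertoli, Leydig, myoid, macrophage and endothelial cells held 5, 5, 3, 4 and 3 genes, of which only Sox9, Rhox5, Des and Cd68 reached 200 UMIs there, and the summed levels in vehicle 1, vehicle 2 and EV 1 were 404, 418 and 398 CPM for Sertoli, 3.87, 3.35 and 2.21 for Leydig, 22.6, 22.5 and 16.2 for myoid, 13.9, 10.4 and 22.3 for macrophage and 4.71, 2.51 and 3.83 CPM for endothelial markers. Cd68 was at 6.69, 6.23 and 18.1 CPM and Lyz2 at 6.38, 2.60 and 2.21 CPM, while the macrophage receptors Adgre1 and Csf1r had at most 12 UMIs in any library. The rule does not tell STO cells from fibroblasts of the testis. Any pair of libraries shared at most 22 barcodes.

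All 4 genes lie on chromosome 13 (GRCm38) and code for protein. Prl8a9 (ENSMUSG00000006490) spans 27557995 to 27564606 on the minus strand, with 6 exons and a transcript of 942 bases. Prl2c2 (ENSMUSG00000079092) spans 12996125 to 13005383 and Prl2c3 (ENSMUSG00000056457) spans 12790816 to 12800079, both on the minus strand. Prl2c5 (ENSMUSG00000055360) spans 13182715 to 13191923 on the plus strand. The Prl2c transcripts have 5 exons and 842, 857 and 844 bases, so that the members hardly differ in length and their levels, which count UMIs, were compared without a length term.

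The Prl2c genes are near copies, which limits how far reads can be told apart. The coding sequence of Prl2c2 was 99.6% identical to that of Prl2c3 and 96.1% identical to that of Prl2c5, whereas that of Prl8a9 was 54.2% to 55.1% identical to the proliferins. The stretch of 60 coding bases within 1 exon where the 3 proliferins differ most, coding positions 317 to 376, is printed here with capitals at the 5 positions that are not the same in all 3 (GENCODE M21 transcripts, 5′ to 3′).
Prl2c2, chr13:12997407-12997466, minus strand: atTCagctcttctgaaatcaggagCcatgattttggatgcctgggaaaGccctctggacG
Prl2c3, chr13:12792114-12792173, minus strand: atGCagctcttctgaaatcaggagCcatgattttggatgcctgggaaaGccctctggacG
Prl2c5, chr13:13190587-13190646, plus strand: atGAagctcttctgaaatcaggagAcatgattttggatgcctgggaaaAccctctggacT
Counted from the first coding base, Prl2c3 differs from Prl2c2 in this stretch by T319G alone, and in the whole coding sequence by T14C, C200A and T319G. Prl2c5 differs from Prl2c2 here by T319G, C320A, C341A, G365A and G376T. Of all windows of 90 bases in the Prl2c2 transcript, 71.7% occurred unchanged in another Prl2c transcript, and in the last 300 windows, toward the 3′ end, the share was 100%. For Prl2c3 the shares were 65.4% and 98.3%, for Prl2c5 11.4% and 18%, and for Prl8a9 0 of 853 windows were shared. The split of UMIs between Prl2c2 and Prl2c3 is therefore uncertain, and this limit holds for every value of either gene below. The sum over Prl2c2, Prl2c3 and Prl2c5 (Prl2c sum) is given for part of the comparisons. Prl8a9 shared no window with a Prl2c transcript. How reads from shared windows were counted, or whether they were left out, cannot be seen in the UMI counts. Levels and shares that set Prl8a9 against the Prl2c genes carry this limit. Prl8a9 was not compared with its own subfamily.

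The promoters were searched for TGANTCA, the letters bound by AP-1 (Fos and Jun) dimers, which are known to drive proliferin genes in fibroblasts. The letters read the same on both strands and occurred in 7.81% of 32851 promoters of the same length (250 bases before to 50 after the start site, RefSeq, GRCm38.p6). Of the 3 members with a promoter in that table, Prl2c3 and Prl8a9 held a match. The windows of 90 bases around it are shown in the direction of transcription, with the 7 letters in capitals, and for Prl2c5 the same place is marked.
Prl2c3, chr13:12800240-12800329, minus strand: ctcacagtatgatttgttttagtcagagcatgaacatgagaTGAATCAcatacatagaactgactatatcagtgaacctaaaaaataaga
Prl2c5, chr13:13182466-13182555, plus strand: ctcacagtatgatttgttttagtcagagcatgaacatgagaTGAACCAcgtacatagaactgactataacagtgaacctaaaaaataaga
Prl8a9, chr13:27564577-27564666, minus strand: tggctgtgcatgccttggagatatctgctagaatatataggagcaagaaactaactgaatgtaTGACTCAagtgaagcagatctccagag
The match began at -209 in Prl2c3 and at 4 in Prl8a9, counted from the start site. Within the 7 letters Prl2c5 differs from Prl2c3 by T5C, and over the whole promoter both were 95.3% identical. The letters TATAAA and TGCNCNC (the core of the metal response element), searched on both strands, were in none of the 3 promoters, against 13.6% and 51.0% of all promoters. Variants of these letters were not searched.

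Prl8a9, a rare transcript in the vehicle libraries, was more abundant in the feeder class of the EV library. It had 17 UMIs in vehicle 1, 24 in vehicle 2 and 126 in EV 1, which is 1.78, 2.23 and 18.6 CPM. The vehicle mean was 2.00 CPM ± 0.320 (SD, n = 2), and the value of EV 1 (15.5 to 22.1, exact Poisson interval) lay far outside the vehicle range. On the log2 scale, with 0.5 UMI added to each sum, EV 1 was 3.18 above the mean of the vehicle libraries, and the ratio to the pooled vehicle libraries was 9.20 (6.42 to 13.4, exact conditional interval). All intervals are 95% intervals that cover counting error only, and with 1 EV library the difference has no replicate check.

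Of the proliferin UMIs most were counted as Prl2c2, which was at like levels in all 3 libraries, while Prl2c3 and Prl2c5 were higher in EV 1. The limit on telling Prl2c2 and Prl2c3 apart holds for both levels. Prl2c2 counted 4127, 4567 and 3065 UMIs in the order vehicle 1, vehicle 2, EV 1, or 431.7, 424.6 and 451.8 CPM. Its log2 ratio was 0.08 and its ratio 1.06 (1.01 to 1.10), just above the vehicle range. Prl2c3 was at 25.7, 25.9 and 44.8 CPM (246, 279 and 304 UMIs), a log2 ratio of 0.79 and a ratio of 1.73 (1.50 to 2.00). Prl2c5 was at 3.35, 2.70 and 9.73 CPM (32, 29 and 66 UMIs), a log2 ratio of 1.67 and a ratio of 3.24 (2.25 to 4.67). The Prl2c sum was at 460.7, 453.2 and 506.3 CPM, with a ratio of 1.11 (1.07 to 1.15), so that the total of proliferin UMIs differed little and its make-up differed more.

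**Figure D1:**
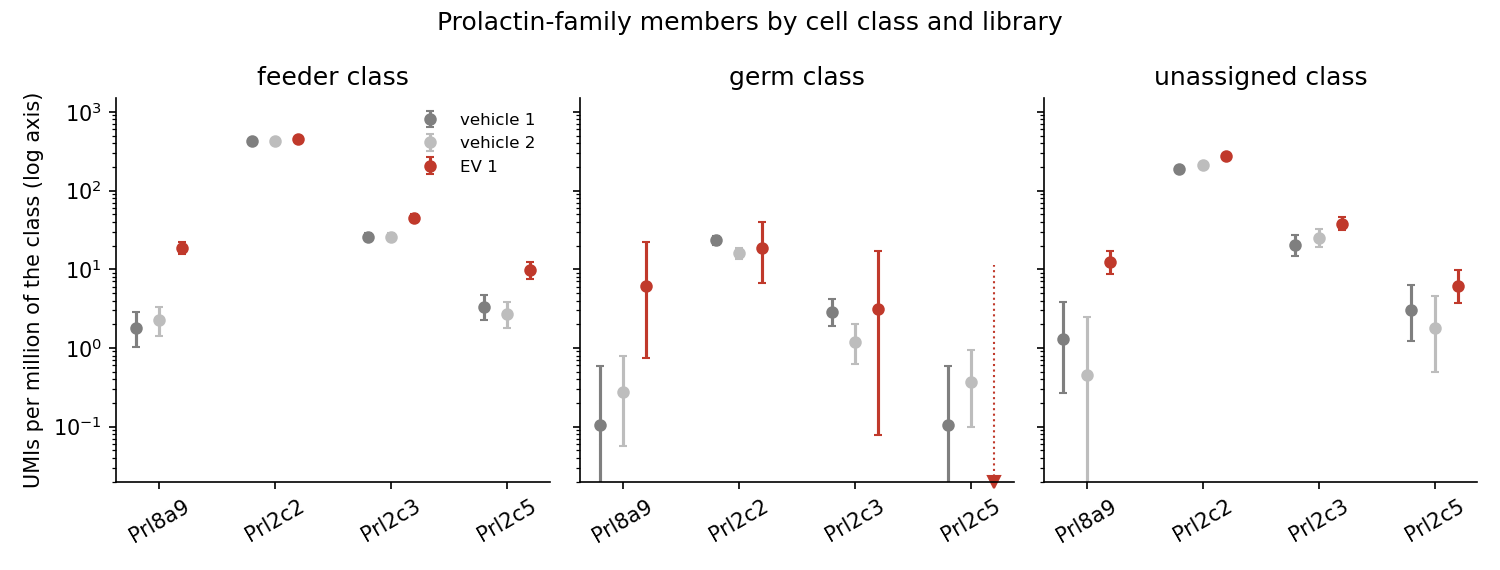
CPM (log axis) of the 4 members in the feeder, germ and unassigned class of vehicle 1, vehicle 2 and EV 1, with exact 95% Poisson intervals as bars and, for 0 UMIs, a triangle at the base with a dotted line to the upper bound. In the feeder class Prl8a9 stood at 1.78 and 2.23 in the vehicle libraries and at 18.6 in EV 1, while Prl2c2 stayed between 424.6 and 451.8.

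To place the members among all genes, a gene was called where EV 1 differed from the vehicle mean by at least 1 on the log2 scale and was farther from the nearest vehicle library than both vehicle libraries were from each other. With at least 200 UMIs over the 3 libraries, 1.41% of 9705 genes were called higher and 2.81% lower (4.22% in either direction). The members that reached this minimum were Prl2c2 and Prl2c3, and 0 of these 2 were called. With a minimum of 50 UMIs, 2.42% of 12877 genes were called higher and 4.7% lower (7.11% in either direction), and 2 of the 4 members, Prl8a9 and Prl2c5, were called higher. Prl8a9 had 41 UMIs in the pooled vehicle libraries and 126 in EV 1, so it reached the minimum of 50 only through EV 1. Since the choice of Prl8a9 also used this contrast, nothing is read from that count or from the place of Prl8a9 given next. By log2 ratio Prl8a9 was in place 5 from the top of the 12877 genes, Prl2c5 in place 67, Prl2c3 in place 534 and Prl2c2 in place 3690. The median of all these genes was −0.13 and 95% of them were below 0.71.

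**Figure D2:**
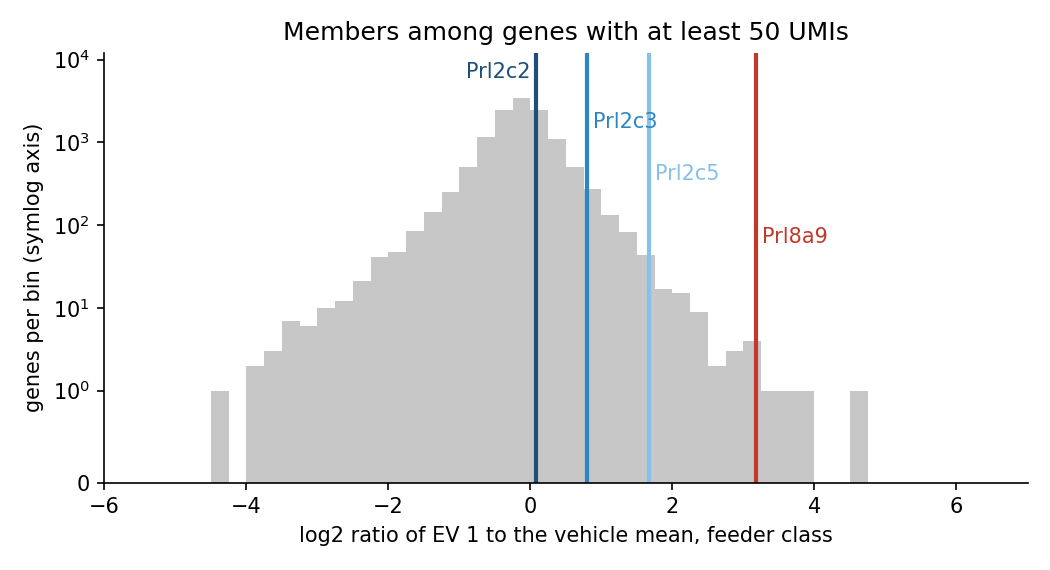
Number of genes (symlog axis) by log2 ratio (EV 1 over the mean of both vehicle libraries) in the feeder class, for the 12877 genes with at least 50 UMIs, with vertical lines at the members. Prl2c2 (0.08) lies near the middle, Prl2c3 (0.79) and Prl2c5 (1.67) lie to the right of it and Prl8a9 (3.18) lies near the right end. Prl8a9 was chosen by this contrast and reached 50 UMIs only through EV 1, so nothing is read from its place.

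The make-up of the proliferin UMIs was the same in both vehicle libraries within counting error and differed in EV 1, as far as the uncertain split between Prl2c2 and Prl2c3 allows. Prl2c2 took 93.7% of the Prl2c sum in vehicle 1 (92.9 to 94.4, Wilson interval), 93.7% in vehicle 2 (93.0 to 94.3) and 89.2% in EV 1 (88.1 to 90.2). Prl2c3 took 5.58%, 5.72% and 8.85% (7.95 to 9.85 in EV 1). Prl2c5, which shares few windows with the others, took 0.726%, 0.595% and 1.92% (1.51 to 2.44 in EV 1). Prl8a9 made up 0.384%, 0.490% and 3.54% of the UMIs of all 4 members. In unassigned cells Prl2c2 took 89.1%, 88.6% and 86.0% of the Prl2c sum, and the intervals of EV 1 (83.6 to 88.1) and vehicle 2 (85.6 to 91.1) overlapped.

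**Figure D3:**
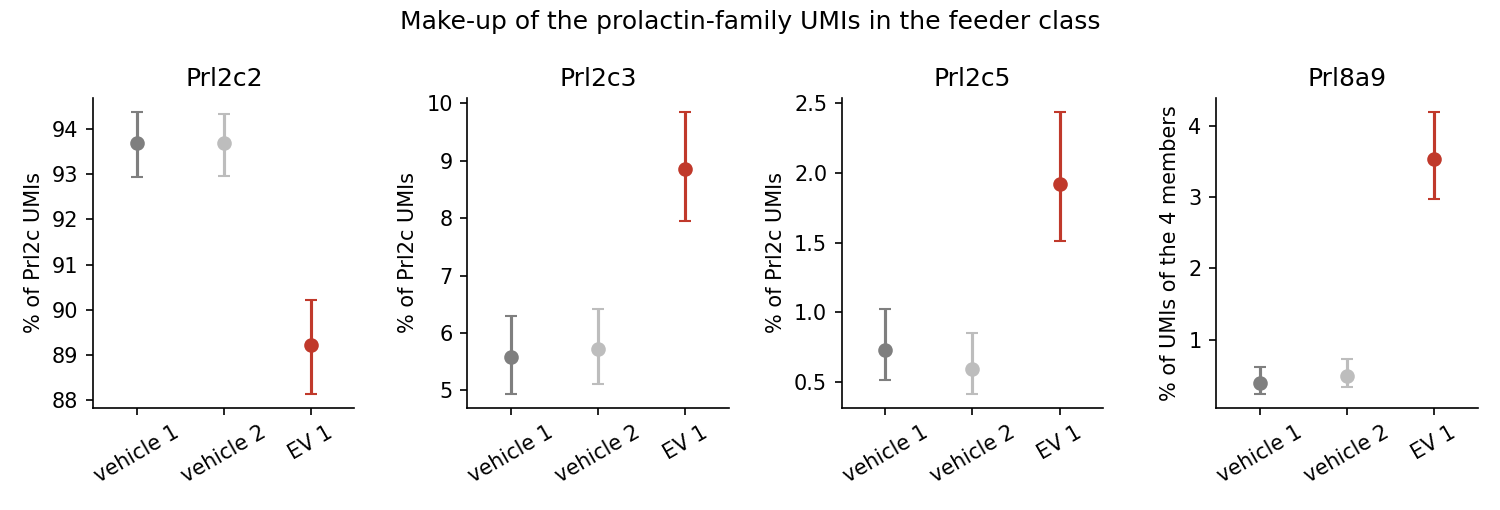
Share of each proliferin in the summed proliferin UMIs, and of Prl8a9 in the UMIs of all 4 members, in the feeder class of each library, with 95% Wilson intervals and axes that do not start at 0. The vehicle libraries sit together in each panel, and EV 1 is lower for Prl2c2 (89.2% against 93.7%) and higher in the other 3 panels.

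Cell by cell, Prl8a9 was found in few feeder cells of each library, and its UMIs were unevenly spread over them. Vehicle 1 had 10 feeder cells with a Prl8a9 UMI (0.424%), vehicle 2 had 17 (0.687%) and EV 1 had 61 (2.43%). The highest cell had 7, 3 and 13 UMIs, so that 1 cell held 7 of the 17 UMIs of vehicle 1. In EV 1, 12 cells held 50% or more of the 126 UMIs and 24 cells had at least 2. The variance of UMIs per cell was 3.58, 1.74 and 4.32 times the mean, where random sampling of equal cells of the same depth gives 1. With cells thinned to 1000 UMIs, which left out 86, 56 and 184 shallower feeder cells and 146, 112 and 49 germ-class cells of vehicle 1, vehicle 2 and EV 1, the share with a Prl8a9 UMI was 0.220% (0.0941 to 0.514), 0.290% (0.140 to 0.597) and 1.25% (0.870 to 1.79). Thinned germ-class cells, which serve as background, gave 0 of 4265 cells in vehicle 1, which allows a share with a UMI of up to 0.0703% (3 cells), as well as 0.0214% in vehicle 2 and 0.562% (1 of 178 cells) in EV 1. Median depths before thinning were 1936, 2091 and 1322 UMIs in the germ class. In EV 1 the interval of that germ-class share, 0.0992 to 3.11, holds the feeder share, so that at this depth both could not be told apart.

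Prl2c2, in contrast, was found in a large share of feeder cells, and this share was alike in the libraries once depth was equal. Without thinning it was 57.4%, 57.9% and 48.0%. At 1000 UMIs it was 29.5% (27.7 to 31.5), 28.1% (26.3 to 29.9) and 30.4% (28.5 to 32.3), against 2.06%, 1.71% and 1.12% of germ-class cells. The highest cell had 28, 30 and 23 UMIs. The tenth of the feeder cells richest in Prl2c2 held 45.8%, 44.9% and 50.8% of its UMIs, and the variance was 3.99, 4.05 and 3.47 times the mean. Cells also differ in depth, and its part in this spread was not tested.

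**Figure D4:**
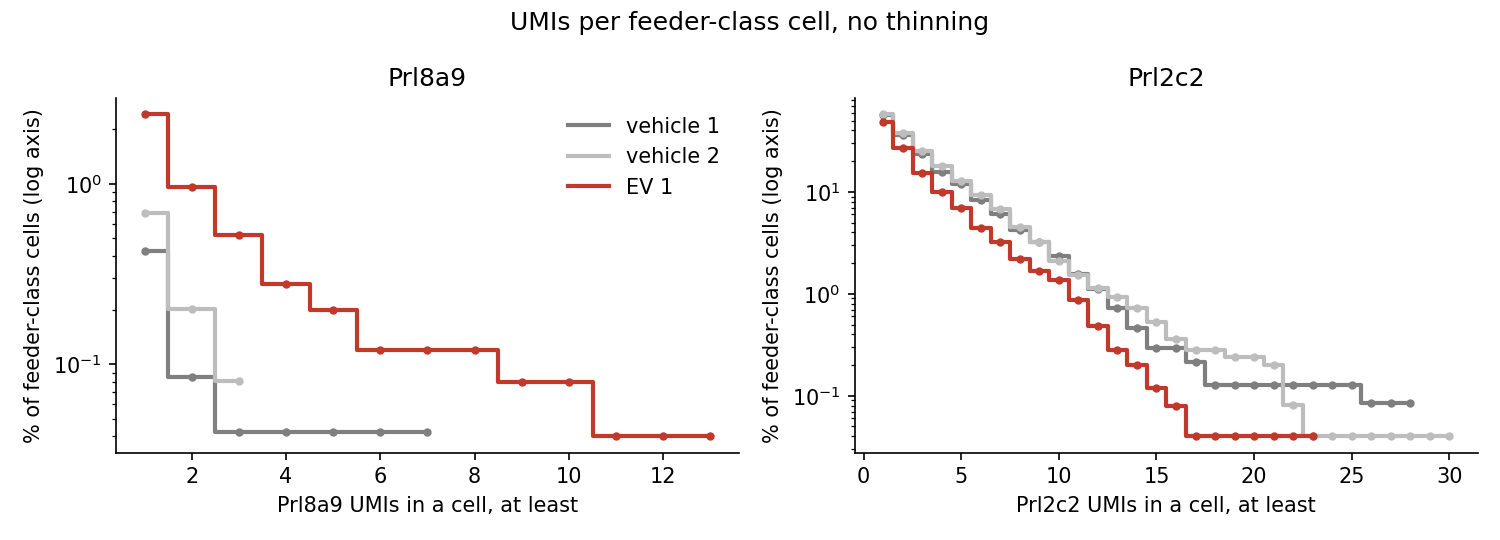
Share of feeder-class cells (log axis) with at least the number of UMIs on the x axis, without thinning, for Prl8a9 and Prl2c2 in each library. The Prl8a9 line of EV 1 lies above both vehicle lines and reaches 13 UMIs, whereas the Prl2c2 lines reach 28, 30 and 23 UMIs and that of EV 1, the shallower library, lies lowest.

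Whether the members were detected in the same feeder cells was read from thinned cells. In cells with a Prl2c3 UMI, Prl2c2 was found in 50.0% of 60 cells in vehicle 1 (37.7 to 62.3), 37.5% of 64 in vehicle 2 (26.7 to 49.7) and 66.7% of 78 in EV 1 (55.6 to 76.1). In cells without one it was found in 29.0%, 27.8% and 29.1%. These shares lay below the intervals of cells with Prl2c3 in vehicle 1 and EV 1, whereas in vehicle 2 both intervals overlapped (26.0 to 29.6 without Prl2c3). The split of UMIs between Prl2c2 and Prl2c3 is uncertain here too, and its part in these shares was not tested. For Prl2c5 the shares with Prl2c2 were 33.3% of 9 cells, 33.3% of 6 and 55.6% of 18 (33.7 to 75.4), against 29.5%, 28.0% and 30.2% (28.3 to 32.1 in EV 1) without it, so that the intervals were apart in EV 1 alone. For Prl8a9 the thinned cells were few. A proliferin UMI was found in 1 of 5, 2 of 7 and 11 of 29 cells with Prl8a9, the last being 37.9% (22.7 to 56.0), against 31.2%, 29.9% and 31.8% of cells without it. Without thinning a proliferin UMI was found in 9 of 10, 12 of 17 and 40 of 61 cells with Prl8a9 (90%, 70.6% and 65.6%), against 1391 of 2347, 1473 of 2456 and 1227 of 2447 cells without it. The cells with Prl8a9 were deeper, with medians of 4102, 5893 and 2795 UMIs against 3629, 3881.5 and 2437.

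Feeder cells were then split into states by fixed gene lists, in the order cycling, interferon, metallothionein-high and other. Metallothionein-high cells, with an Mt1 and Mt2 share above the median of vehicle feeder cells, made up 27.6%, 25.1% and 73.0% of the feeder class of vehicle 1, vehicle 2 and EV 1. Interferon cells made up 33.1%, 36.1% and 8.33%, and cycling cells 10.0%, 9.14% and 1.63%. Prl8a9 was higher in EV 1 within the 3 states that had more than 1 UMI there. Its ratio to the pooled vehicle libraries was 8.85 in interferon cells (3.78 to 20.2, 12 UMIs in EV 1), 5.92 in metallothionein-high cells (3.35 to 11.2, 91 UMIs) and 17.5 in the other cells (6.89 to 52.8, 22 UMIs). In cycling cells EV 1 had 1 UMI, and the ratio of 2.81 had an interval from 0.0611 to 23.2. Within EV 1, metallothionein-high cells were at 18.6 CPM and the other cells at 23.2 CPM, and the interval of their ratio ran from 0.498 to 1.34, so that the states could not be told apart. Of the 61 EV cells with Prl8a9, 43 (70.5%) were metallothionein-high, against 73.1% of those without it.

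Between interferon and other cells, Prl2c2 and Prl2c3 each differed in the same direction in both vehicle libraries, and Prl2c5 did not. Depth moved with the state, with medians of 4622, 4839 and 3476 UMIs in interferon cells, 3053, 3370 and 2434 in metallothionein-high cells and 2684, 2877 and 1942 in the other cells, and its part in the ratios was not tested. Prl2c2 was at 484, 488 and 567 CPM in interferon cells and at 416, 380 and 355 CPM in the other cells, a ratio of 1.16 (1.07 to 1.26), 1.28 (1.19 to 1.39) and 1.60 (1.38 to 1.84) in vehicle 1, vehicle 2 and EV 1. The ratio of metallothionein-high to other cells for Prl2c2 was 0.903 (0.821 to 0.994), 0.946 (0.859 to 1.04) and 1.27 (1.14 to 1.43), so that its interval held 1 in vehicle 2 and the direction was the opposite in EV 1. As counted, Prl2c3 went the opposite way from Prl2c2 in interferon cells of the vehicle libraries, with a ratio of interferon to other cells of 0.675 (0.492 to 0.928) and 0.511 (0.383 to 0.682). In EV 1 the ratio for Prl2c3 was near 1 at 1.02 (0.685 to 1.52). The uncertain split between both genes limits this reading. For the Prl2c sum the ratio of interferon to other cells was 1.11 (1.03 to 1.20), 1.21 (1.13 to 1.31) and 1.47 (1.29 to 1.68) in vehicle 1, vehicle 2 and EV 1. In metallothionein-high cells Prl2c3 was below the other cells in all 3 libraries, with ratios of 0.619, 0.468 and 0.630 and upper bounds of 0.901, 0.673 and 0.858. For Prl2c5 the ratio of interferon to other cells was 0.194 (0.0627 to 0.516) in vehicle 1, 2.93 (0.847 to 15.6) in vehicle 2 and 0.538 (0.187 to 1.38) in EV 1, and that of metallothionein-high to other cells was 0.171 (0.0320 to 0.590), 1.77 (0.345 to 11.4) and 0.484 (0.265 to 0.925). The ratio of EV 1 to vehicle for Prl2c2 was 1.17 (1.06 to 1.29) in interferon, 1.23 (1.16 to 1.31) in metallothionein-high and 0.896 (0.795 to 1.01) in the other cells. Prl2c3 was above vehicle in these 3 states, with ratios of 2.84, 1.90 and 1.61, and Prl2c5 with 3.37, 4.55 and 3.82. In cycling cells the ratio was 1.07 for Prl2c2 (0.832 to 1.36), 1.01 for Prl2c3 (0.267 to 2.70, 4 UMIs in EV 1) and 5.06 for Prl2c5 (0.895 to 19.7, 3 UMIs), each with 1 inside its interval. Whether these ratios differ between states was not tested.

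Depth per cell was lower in EV 1, so the members were also read in ranges of depth. In cells under 2000 UMIs Prl8a9 had 0 UMIs in both vehicle libraries and 26 UMIs (21.2 CPM) in EV 1, and the exact conditional interval of the ratio began at 5.77. From 2000 to 4000 UMIs EV 1 had 18.1 CPM and the ratio was 7.72 (4.21 to 15.3), and at 4000 UMIs or more it had 17.8 CPM and the ratio was 8.69 (5.17 to 14.7). The intervals of the 3 EV levels overlapped. Prl2c3 differed from this, with a ratio of 0.819 (0.522 to 1.28) in the shallowest cells, 1.67 (1.32 to 2.11) in the middle range and 2.16 (1.72 to 2.69) in the deepest. Prl2c5 had a ratio of 1.37 (0.551 to 3.58) in the shallowest cells, where vehicle 1 with 13.8 CPM stood above EV 1 with 11.4 CPM, and of 2.97 (1.54 to 5.99) and 4.26 (2.44 to 7.32) in the deeper ranges. Prl2c2 was higher in deep than in shallow cells of each library, from 396, 307 and 361 CPM in the shallowest cells to 448, 450 and 521 CPM in the deepest, and its ratio of EV 1 to vehicle was 1.02 (0.885 to 1.17), 1.14 (1.06 to 1.21) and 1.16 (1.09 to 1.24) from the shallowest to the deepest range.

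**Figure D5:**
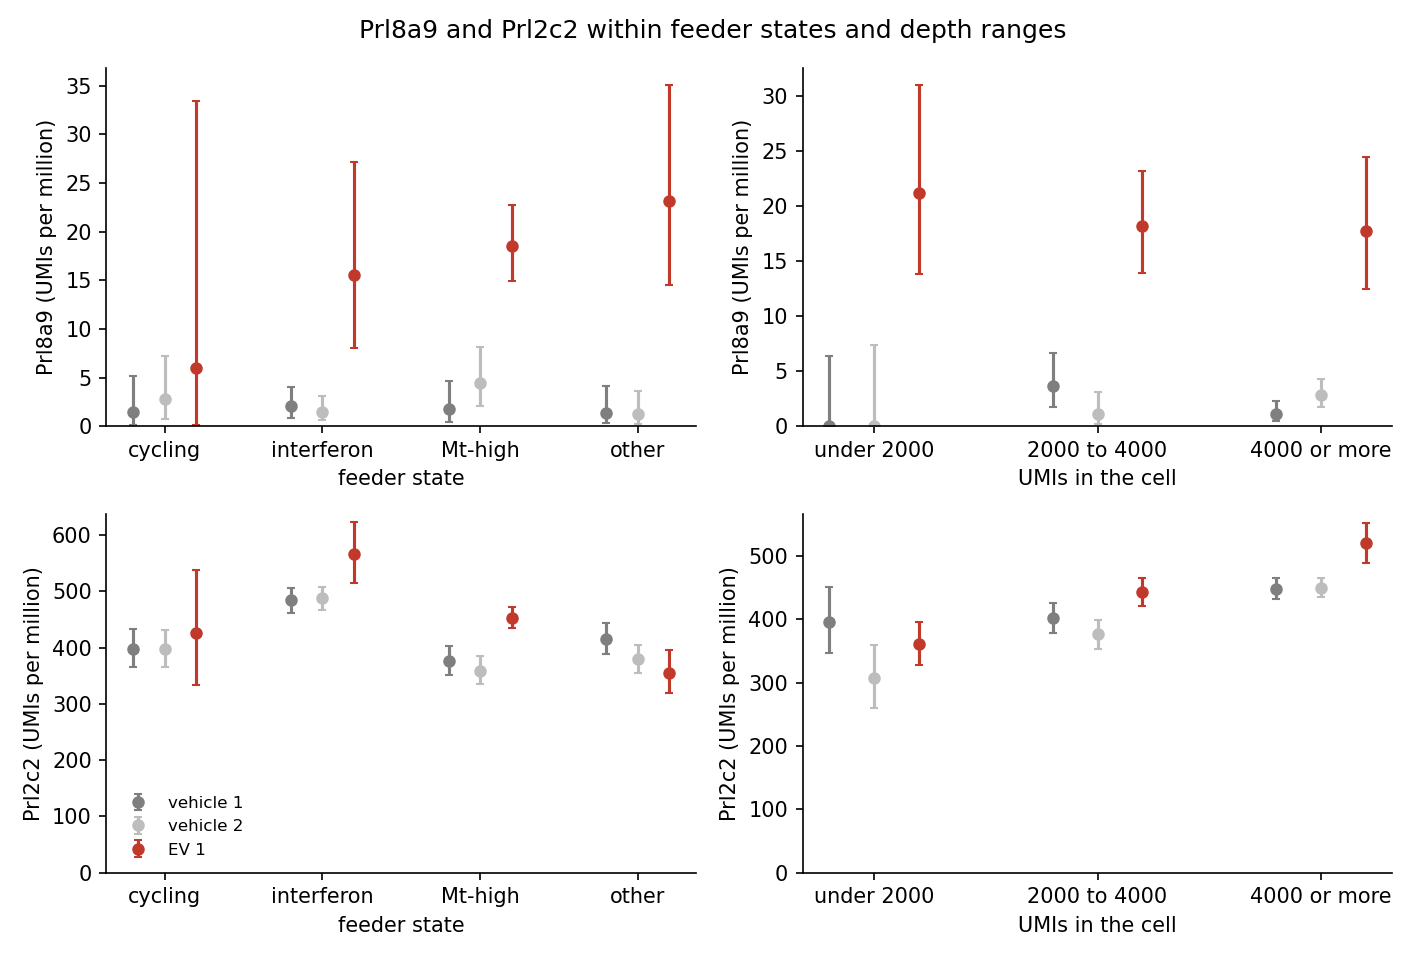
Level of Prl8a9 (top) and Prl2c2 (bottom) in CPM, by feeder state (left) and by depth of the cell (right), with exact 95% Poisson intervals. Prl8a9 in EV 1 lies between 15.6 and 23.2 in every group but cycling cells, where it rests on 1 UMI. For Prl2c2 the libraries lie closer. In metallothionein-high cells EV 1 is above both vehicle libraries (453 against 376 and 359), as in cells of 4000 UMIs or more (521 against 448 and 450). In the other cells it is below both (355 against 416 and 380), and under 2000 UMIs it is between them.

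Against the germ class of the same library, the 4 members were higher in the feeder class of the vehicle libraries. In the pooled vehicle libraries Prl2c2 was 22.2-fold higher in the feeder class (20.0 to 24.6), Prl2c3 13.2-fold (9.57 to 18.7), Prl2c5 12.3-fold (4.99 to 39.2) and Prl8a9 10.3-fold (3.74 to 39.7). For Prl2c2 vehicle 1 gave 18.5-fold, vehicle 2 gave 26.7-fold and EV 1 gave 24.5-fold (11.2 to 66.7). Single vehicle libraries moved the other folds by more, to 9.00 and 22.0 for Prl2c3, 31.6 and 7.42 for Prl2c5 and 16.8 and 8.19 for Prl8a9. In EV 1, with 325012 germ-class UMIs, the fold was 3.02 for Prl8a9 and its interval (0.818 to 25.2) held 1, while Prl2c3 gave 14.6 (2.59 to 577) and Prl2c5 had no germ-class UMI. Read the other way, Prl2c2 in germ-class cells was at 5.40%, 3.74% and 4.09% of its feeder level. For Col3a1, a fibroblast collagen not used to cut the classes, these shares were 5.74%, 4.40% and 17.6%, and the median over the fibroblast genes with a feeder UMI (11 genes in vehicle 1, 12 in vehicle 2 and EV 1) was 6.97%, 7.60% and 14.3%. Single fibroblast genes ran from 3.35% to 83.8% in vehicle 1 and from 0% to 78.6% in vehicle 2, so that Prl2c2 lay inside their range. Prl8a9 had 1, 3 and 2 UMIs in the germ class, and Prl2c5 had 1, 4 and 0, where 0 UMIs of EV 1 allow up to 9.23 CPM (3 UMIs).

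Unassigned cells, which carry few marker UMIs of either kind, held Prl2c2 at lower levels than feeder cells and Prl8a9 with EV 1 again above both vehicle libraries. Prl8a9 was at 1.31 CPM in vehicle 1 (3 UMIs), 0.448 in vehicle 2 (1 UMI) and 12.4 in EV 1 (36 UMIs), a ratio of 14.0 (5.02 to 54.1). Prl2c2 was at 189, 209 and 271 CPM, a ratio of 1.36 (1.24 to 1.50), above that in the feeder class. Prl2c3 was at 20.1, 25.1 and 37.8 CPM and Prl2c5 at 3.06, 1.79 and 6.19 CPM, with intervals that overlapped those of the feeder class of the same library. In the order of all levels of Prl8a9, the feeder class of EV 1 came first, followed by its unassigned cells, whose interval (8.67 to 17.1) overlapped that of the feeder class, and its germ class at 6.15 CPM (0.745 to 22.2), which overlapped both. Both vehicle feeder values came next and were not distinct from each other (1.04 to 2.85 and 1.43 to 3.32).

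The rest of the prolactin family was nearly silent in feeder cells. Of 23 other family genes looked for, 22 are in the files, and 21 of these had at least 1 UMI in the feeder class, but 0 reached 200 UMIs. Together they counted 32, 33 and 51 UMIs, or 3.35, 3.07 and 7.52 CPM, a ratio of 2.35 (1.60 to 3.44). Prl8a1, a placental gene of the same subfamily as Prl8a9, had 0, 0 and 4 UMIs. Prl7a2 had 2, 1 and 6 UMIs and Prl6a1 had 3, 5 and 7. Prl7d1, the proliferin-related protein that opposes the angiogenic action of proliferins, had 16, 2 and 5 UMIs, and 14 of the 16 in vehicle 1 came from a single cell. Prolactin itself (Prl) had 1, 2 and 1 UMIs. The ratio of EV 1 to vehicle was 5.99 for Prl7a2 (1.28 to 37.0) and 2.62 for Prl6a1 (0.809 to 8.27), from 9 and 15 UMIs in all, and for Prl8a1 its interval began at 1.98. It was 0.599 for Prl2c1 (0.0638 to 2.81), which had 2, 8 and 2 UMIs, and 0.599 for Prl7c1 (0.0127 to 5.35), which had 1, 4 and 1, while Prl4a1 had 1, 2 and 0 UMIs. The single genes named here were singled out after their values were seen.

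Markers of trophoblast cells were at the same low level. Of 15 markers, 11 had a UMI in the feeder class, 0 reached 200 UMIs, and their sum was 4.08, 4.74 and 6.19 CPM. Tpbpa, Gcm1, Cdx2 and Ctsq were at 0 UMIs in all 3 libraries, and Plac1, which gave most of the sum, had 28, 37 and 29 UMIs.

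Among receptors and signalling genes of the family, 11 of 14 reached 200 UMIs in the feeder class, and 0 were called higher and 0 lower, with a median log2 ratio of −0.22. Over all genes with that minimum 4.22% were called and the median was −0.13, so that 0 of 11 cannot be told from the background. Igf2r, the receptor bound by proliferins, was at 271, 291 and 235 CPM, and M6pr, which also binds mannose 6-phosphate, was at 43.6, 49.6 and 71.0 CPM. The prolactin receptor Prlr had 10, 14 and 10 UMIs, or 1.05, 1.30 and 1.47 CPM. The growth hormone receptor Ghr was at 140, 153 and 163 CPM. Of the targets and inhibitors downstream, Cish had 54, 61 and 57 UMIs and Socs1, an inhibitor of Jak kinases, was at 24.0, 24.0 and 15.5 CPM.

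The AP-1 genes all reached 200 UMIs, and of 7, 0 were called higher and 2 lower, against 1.41% and 2.81% of all genes with that minimum. Fos was at 158.9, 148.5 and 16.5 CPM, a log2 ratio of −3.21, and Fosb was at 110.3, 96.5 and 18.6 CPM, a log2 ratio of −2.47. Fosl1, another Fos-type subunit, was at 123.5, 138.2 and 180.4 CPM, and Jun, their partner, was at 438, 475 and 387 CPM.

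Genes next to the proliferins were looked at in the same way. Of 11 other genes within 500 kb of a Prl2c gene, 5 reached 200 UMIs, and 0 were called in either direction, where 4.22% of all genes with that minimum were called. Gm48544, a long noncoding RNA gene on chromosome 13 (GRCm38), had 5, 4 and 27 UMIs, a ratio of 8.98 (4.10 to 21.7). Actn2, a muscle actinin gene, had 16, 16 and 2 UMIs, a ratio of 0.187 (0.0217 to 0.734). Both stayed under the minimum and were singled out after their values were seen. Near Prl8a9, Gm47888 had 10, 13 and 13 UMIs.

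The genes most like Prl8a9 were sought over 12 groups (4 states in 3 libraries) among 9705 genes, by Pearson correlation of log2(CPM + 1). Among the 5 highest were Gm41724 (r = 0.952), Mir22hg, the host gene of a microRNA (r = 0.949), Lbh (r = 0.946) and Ccn1, a matrix-associated signalling protein (r = 0.939). In the feeder class Gm41724 was at 24.5, 31.3 and 113.0 CPM and Ccn1 at 11.7, 11.4 and 43.2 CPM. For the Prl2c sum the likeness was weaker, led by Plrg1 (r = 0.768), Gm15867 (0.752), Chmp1b (0.739), Zfp36l2 (0.734) and Ankra2 (0.732). Prl8a9 itself had r = 0.162 with Prl2c2, 0.664 with Prl2c3 and 0.687 with Prl2c5. The Prl8a9 levels behind these values rest on few UMIs, from 2 to 10 in each vehicle group and 1 in cycling cells of EV 1. The compared genes had at least 200 UMIs in the feeder class. Groups of 1 library share its depth and handling, and the EV library alone sets Prl8a9 apart, so these values describe the 12 groups and are no test.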

How the data were processed

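The authors followed a droplet protocol of 10x Genomics, mapped reads to mm10 (GENCODE vM23) and used Cell Ranger 7.0.1 for counting. What they deposited are whole-number UMI counts of each gene in each called barcode, and the authors applied no normalization to them. Following the study, cells were kept if they had between 400 and 4000 genes and a mitochondrial share below 10%. Doublets were removed by Scrublet score (scanpy 1.11.5) at 0.8% per 1000 cells, which took 7.12%, 7.47% and 3.98% of vehicle 1, vehicle 2 and EV 1, whereas the study used another caller.

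UMIs were summed per library and class and scaled to 1e6 (CPM). Total UMIs were 23686047, 27444797 and 10793232, of which the feeder class held 9560631, 10756382 and 6784725, so that 3 UMIs are 0.314, 0.279 and 0.442 CPM. Because counts of 1 EV library were used, nothing was tested over libraries. The members and all gene lists were chosen with earlier results of these data known. The genes named are the 4 members, the family, receptor, AP-1 and marker lists, genes within 500 kb and the 5 genes most like Prl8a9 and the Prl2c sum, of which 1 is not reported here. Gene positions and transcripts came from GENCODE M21, which matched 32158 of 32285 gene IDs. The calculations were tested on simulated counts. Scaling alternatives used edgeR 4.0.16 in R 4.3.3. Python 3.11.15, numpy 2.4.6, scipy 1.17.1, pandas 2.3.3, Biopython 1.88 and matplotlib 3.10.9 were used.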

Additional observations from a re-analysis of the deposited data

How the results depend on the processing

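The members' levels (EV over vehicle and feeder over germ class), the shares of cells with Prl8a9 or a Prl2c sum UMI and the count of called genes were recomputed under alternatives, 114 values in all, and the other values of the report were not. Of the 114, 88 stayed inside the counting interval of the reported value (or, for counts of genes, within 1.5 times), and 26 did not. Of the latter, the difference in the share of cells with a Prl2c sum UMI changed sign. Prl8a9 in feeder cells stayed between 2.83 and 3.62 on the log2 scale, with the lowest value when doublets were not removed and the highest when feeder cells with any germ marker UMI were left out. The log2 ratio of EV 1 to vehicle became 0.15 with TMM factors, 0.17 with median-of-ratios size factors and 0.16 with 4 marker UMIs per class for Prl2c2, and 0.22, 0.24 and 0.22 for the Prl2c sum, while Prl2c3 became 0.58 as a mean over cells. The difference in the share of cells with Prl8a9 became 1.88 points without thinning and 1.81 points at 2000 UMIs, and that of the Prl2c sum went from 1.34 points to −9.20 points without thinning, where depth differs. For feeder over germ class the log2 ratio became 4.22 (mean over cells), 4.75 (4 marker UMIs), 4.21 (doublets kept) and 4.14 (all barcodes) for Prl2c2 and 4.17, 4.70, 4.15 and 4.09 for the Prl2c sum. Genes called numbered 410 (137 higher, 273 lower), 916 with a minimum of 50 UMIs and 4386 with a minimum of 1 UMI. Of the calls 33.4% were higher with class totals, 41.2% with TMM factors, 44.8% with median-of-ratios size factors and 53.8% with a minimum of 1 UMI. TMM and median-of-ratios scaling moved the median gene by 0.07 and 0.09.

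With either vehicle library left out, the log2 ratio of EV 1 to vehicle ranged from 3.03 to 3.35 for Prl8a9, 0.07 to 0.09 for Prl2c2, 0.79 to 0.80 for Prl2c3, 1.53 to 1.84 for Prl2c5 and 0.14 to 0.16 for the Prl2c sum. Feeder over germ class ranged from 2.84 to 3.53, 4.21 to 4.74, 3.15 to 4.41, 2.75 to 4.42 and 4.13 to 4.70 in the same order, the share differences from 0.958 to 1.03 points for Prl8a9 and 0.710 to 1.97 points for the Prl2c sum, and the genes called from 421 to 431. No paired analysis was possible because counts of EV 2 were not analysed here, which leaves 1 number with counts in both groups. Traits of the EV 1 library cannot be told apart from the treatment, since it is the only EV library whose counts were used.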
